A study of Mus musculus with 9 samples.

Results

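The genes described here are Myc and 51 genes that work with it in making ribosomes and polyamines. They were taken as a list of symbols, matched to the mouse Ensembl identifiers of the deposited counts, and kept where at least 10 counts were present in 3 or more of the 9 libraries. All 52 of the 52 listed genes met this rule, out of 21159 genes in the table. No measured value chose the list itself, although it was drawn up with earlier results of these data known.

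All 9 libraries came from lineage-depleted bone marrow (BM) cells of mice with floxed Runx2 and a tamoxifen-inducible Cre recombinase (Runx2fl/fl;CreERT2tg), so every group carried both alleles. A retrovirus for KMT2A-MLLT1-eGFP, the leukaemia fusion also known as MLL-ENL, was used to transform the cells through repeated plating in methylcellulose every 7 days. The BM progenitor group (n = 3) was untreated and its RNA was taken ahead of the first replating; the labels leave unclear whether these cells carried the fusion. The Runx2wt group (n = 3) was transformed cells in suspension given ethanol, and the Runx2ko group (n = 3) was transformed cells given 4-hydroxytamoxifen (400 nM, 24 hours) to activate Cre. The promoter of the Cre transgene, the age of the mice and the number of animals are not stated in the sources used here. Medium, passage and retroviral transformation differ together between BM progenitors and transformed cells, and cannot be told apart. Tamoxifen and Cre activity likewise go with every Runx2ko library.

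MYC is a transcription factor that binds DNA as a dimer with MAX, at sites called E-boxes, whose canonical letters are CACGTG. Among its best known targets are the genes for ribosome biogenesis: RNA polymerase I copies ribosomal DNA in the nucleolus, small nucleolar ribonucleoproteins (snoRNPs) modify the transcript, and assembly factors fold and cut it into the small and large subunits. Leukaemia cells with KMT2A fusions are known to depend on MYC, and ribosome production in blood cells usually falls when they stop dividing.

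RefSeq promoter windows (GRCm38.p6, 250 bases before to 50 bases after an annotated start, 300 bases in all) were found for 44 of the 52 genes. The letters CACGTG, which read the same on both strands, were in the windows of 10 of these 44 genes (22.7%), beside 12.2% of the 8479 tested genes with a window and 8.09% of all 27025 genes. These 10 stretches are shown because they hold the letters that MYC and MAX dimers are known for; each is 30 bases, 5′ to 3′ on the gene's strand, with CACGTG in capitals. A match describes the letters only, and no binding was measured.
Grwd1, chr7:45830740-45830769, minus strand: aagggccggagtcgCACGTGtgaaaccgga
Imp4, chr1:34439696-34439725, plus strand: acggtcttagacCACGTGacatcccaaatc
Ltv1, chr10:13193092-13193121, minus strand: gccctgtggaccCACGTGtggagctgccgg
Mybbp1a, chr11:72441347-72441376, plus strand: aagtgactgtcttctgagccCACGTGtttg
Nop2, chr6:125131811-125131840, plus strand: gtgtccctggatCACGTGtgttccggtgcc
Pes1, chr11:3963965-3963994, plus strand: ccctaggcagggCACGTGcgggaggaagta
Pno1, chr11:17211540-17211569, minus strand: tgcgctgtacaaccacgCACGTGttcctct
Tsr1, chr11:74898092-74898121, plus strand: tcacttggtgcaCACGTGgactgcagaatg
Utp20, chr10:88826765-88826794, minus strand: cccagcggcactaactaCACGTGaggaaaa
Wdr43, chr17:71616220-71616249, plus strand: cgcccgggcgaaCACGTGgctgccgcggag
In 8 of the 10 genes the first base of the motif lay after the RefSeq start, between base 3 (Pes1) and base 41 (Mybbp1a). Imp4 and Nop2 held it before the start, at -121 and -60. The variant CGCGTG (or CACGCG on the other strand) was in 34.1% of the 44 genes, beside 20.7% of tested genes and 10.5% of all genes. The variant CATGTG (or CACATG) was in 18.2%, beside 10.2% and 15.9%. The windows had a median of 59.7% G and C in these genes and 60.7% in the tested genes, against 52.7% over all windows, so the tested genes are the closer background in base composition.

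Levels are given as CPM, a count scaled to a fixed library total, after TMM factors had corrected each total for a few genes that take much of it. QuantSeq primes a read near the polyadenylation site, so that a CPM counts transcript ends and is not divided by length. Library totals ran from 3118594 to 5348177 counts, and no pair of libraries in a group agreed within sampling noise. One library was unlike the rest of its group: across genes, log2 CPM of Runx2ko replicate 1 correlated at 0.816 and 0.793 with replicates 2 and 3, against 0.945 for those 2 libraries with each other. Its mast cell and basophil markers summed to 3902.2 CPM, against 44.9 to 479.7 CPM in the other Runx2ko libraries. Its monocyte and macrophage markers summed to 706.1 CPM, against 5502.6 to 11695.2 CPM. Counts over the 52 genes and over several other lists are therefore also given without this library. Of the pathway genes named below as passing against BM progenitors with all 9 libraries, 1 (Zmat3, in Runx2ko) did not pass without it. Runx2 itself was at 53.3, 46.7 and 58.8 CPM in BM progenitors, 159.4, 178.8 and 131 CPM in Runx2wt, and 21, 120.1 and 134.7 CPM in Runx2ko. Which part of Runx2 is floxed is not stated in the sources used here; a tag at the end of the transcript does not check the deletion if it lies outside that part. Markers of haematopoietic cells, 6 of 6 detected, summed to between 503.9 and 1211.5 CPM in every library, and T cell markers, 12 genes, to between 9.15 and 43.8 CPM, with 4 of the 12 at 0 in every Runx2wt library.

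**Figure D1:**
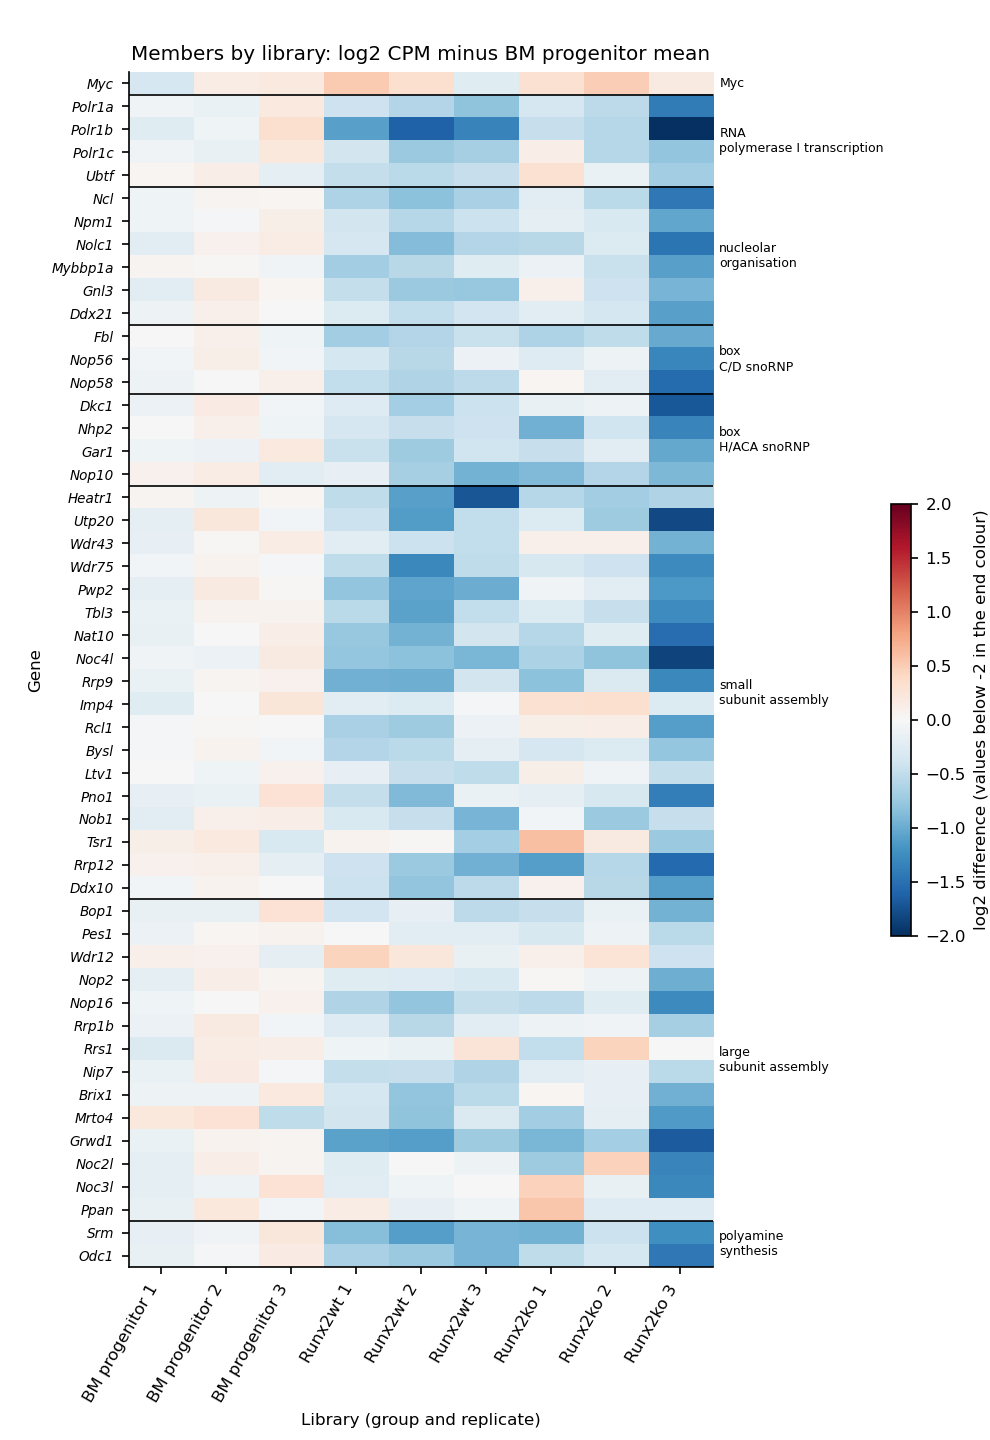
Colour shows log2 CPM minus the mean of the 3 BM progenitor libraries, for the 52 genes (rows, by role) in the 9 libraries (columns). The Runx2wt columns are mostly blue, and Runx2ko replicate 3 is the lowest library for 43 of the 52 genes.

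The 52 genes together took 1.05% to 1.18% of all counts in BM progenitors, 0.662% to 0.819% in Runx2wt, and 0.917%, 0.871% and 0.491% in Runx2ko replicates 1, 2 and 3. Both transformed groups lay below BM progenitors in this share, with no overlap. In bulk RNA, fewer cells of a type and less RNA per cell cannot be told apart. Runx2wt libraries lay close together, whereas Runx2ko replicate 3 was far below the other Runx2ko libraries. Measured gene by gene, the median log2 difference from the BM progenitor mean was -0.42, -0.63 and -0.48 in the Runx2wt libraries. It was -0.24, -0.26 and -1.09 in Runx2ko replicates 1, 2 and 3.

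In Runx2wt against BM progenitors, 3 of the 52 genes were lower by edgeR's quasi-likelihood test at an adjusted p under 0.05 and none was higher, where 13.5% of the 11196 tested genes passed in either direction, 5.23% as lower and 8.28% as higher. At 5.77% of the list, the count of lower genes is near that background. The position of the values was less even: 49 of 52 fitted log2 fold changes were below 0, beside 49.3% of all genes, and their median was -0.52, beside 0.01 for all genes. In 40 of the 52 genes every Runx2wt library was below every BM progenitor library, beside 24.5% of all genes, and no member lay wholly above. An unadjusted p under 0.05 was reached by 22 members (42.3%), beside 31.8% of all genes. This fit pools the spread of all 9 libraries, Runx2ko included. With the compared libraries alone, 32 of the 52 genes were lower and none higher, where 16% of the 10864 genes passed as lower, and without Runx2ko replicate 1 the count was 15, where 12.1% passed as lower. Without Runx2ko replicate 3 it was 14, as the count over all genes, in either direction, went from 1513 to 2042. No member passed when any 1 BM progenitor library (209 to 331 of all genes passing in either direction) or Runx2wt replicate 2 (402 genes) or 3 (842 genes) was left out.

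Myc (ENSMUSG00000022346, chr15:61985391-61990374, plus strand) was among the 3 members with a fitted value above 0 in Runx2wt against BM progenitors. It was also among the 12 members whose libraries overlapped between these groups. It was at 37.4, 52.9 and 54.4 CPM in BM progenitors, 68.9, 59.3 and 40.1 CPM in Runx2wt, and 58.5, 67.2 and 53.9 CPM in Runx2ko. The 3 groups overlapped, with means of 48.2 ± 9.39, 56.1 ± 14.7 and 59.9 ± 6.72 CPM (SD, n = 3 each). Its log2 fold change was 0.22 (SE 0.24, with an adjusted p of 0.554 by edgeR) in Runx2wt against BM progenitors, 0.09 (SE 0.24, adjusted p = 0.935) in Runx2ko against Runx2wt, and 0.31 (SE 0.24, adjusted p = 0.389) in Runx2ko against BM progenitors. None passed the test, which does not show that Myc was equal in the groups.

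**Figure D2:**
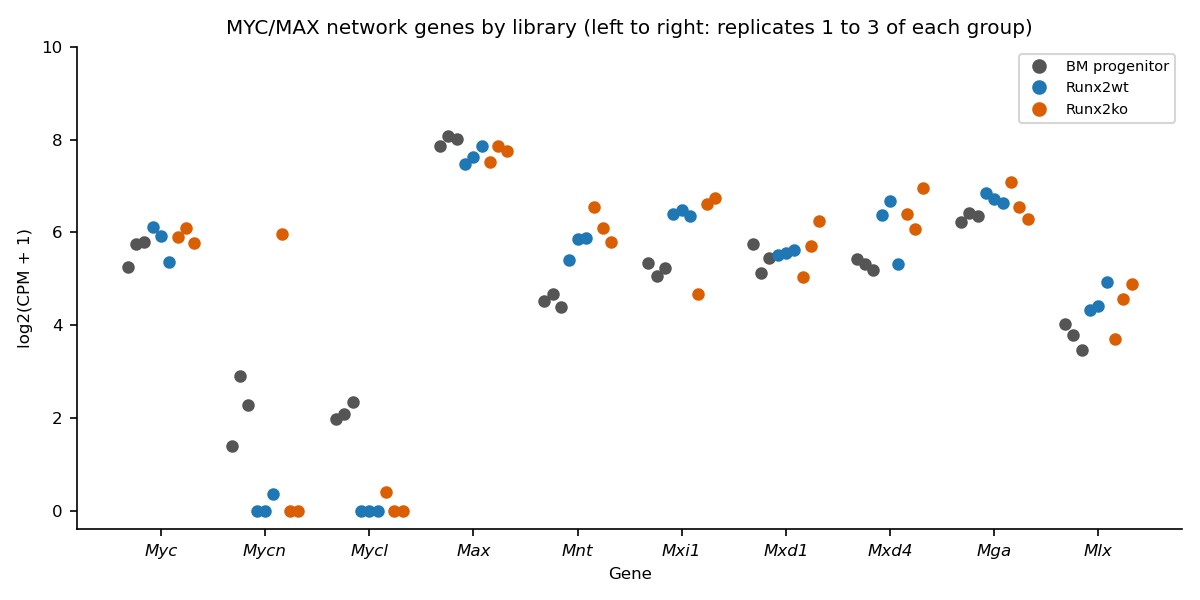
Each point is 1 library, as log2(CPM + 1), for Myc and 9 genes of the MYC/MAX network. Myc overlaps among the 3 groups, Mnt is higher in all 6 transformed libraries than in BM progenitors, and Mycn stands out in Runx2ko replicate 1.

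Of the other genes of the MYC/MAX network, 14 were tested. In Runx2wt 1 was higher and 1 lower than in BM progenitors, and in Runx2ko 2 and 2. Without Runx2ko replicate 1 these counts were 3 and 2, and 4 and 3. Mnt, a MAX partner that represses E-box genes, rose in both transformed groups. It was at 22.1, 24.3 and 20 CPM in BM progenitors, 41.2, 57.1 and 58.1 CPM in Runx2wt, and 92.8, 67.7 and 54.5 CPM in Runx2ko. All 6 transformed libraries were above all 3 BM progenitor libraries, with log2 fold changes of 1.24 (SE 0.24, edgeR adjusted p = 0.0138) and 1.7 (SE 0.24, adjusted p = 0.00432). Mycl, a MYC paralog, fell: it had 12 to 19 counts in each BM progenitor library, 0 in every Runx2wt library and 1 over the Runx2ko group. Set against a floor of 3 counts over the Runx2wt group (0.24 CPM, counting error only), it was at least 14.2-fold lower in Runx2wt than its BM progenitor mean of 3.4 CPM. Its edgeR adjusted p was 0.0159 in Runx2wt and 0.0204 in Runx2ko. In Runx2ko against BM progenitors, Mxd4, another repressive MAX partner, rose by 1.22 (SE 0.34, edgeR adjusted p = 0.0395), and Zbtb17, which encodes the MYC-binding transcription factor MIZ1, fell by 1.16 (SE 0.31, adjusted p = 0.0324) on the log2 scale. Mxi1, a further MAX partner, was at 39.6, 32.6 and 36.5 CPM in BM progenitors and 83.2, 88.7 and 80.4 CPM in Runx2wt, without overlap. Its Runx2ko values were 24.6, 96.5 and 106 CPM, replicate 1 being the low one, and its adjusted p in Runx2wt was 0.0855 with all libraries and 0.000319 without Runx2ko replicate 1. Max was at 230.8, 270.6 and 258.7 CPM in BM progenitors and between 178.2 and 233.7 CPM in the transformed libraries. Its group means were 253.4 CPM in BM progenitors, 202.1 CPM in Runx2wt and 210.2 CPM in Runx2ko. Max did not pass in any comparison (adjusted p = 0.278 by edgeR in Runx2ko against BM progenitors).

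RNA polymerase I transcription was represented by 4 genes: Polr1a and Polr1b for the large catalytic subunits, Polr1c for a subunit shared with RNA polymerase III, and Ubtf for the factor that opens ribosomal DNA. In all 4, every Runx2wt library was below every BM progenitor library, beside 24.5% of all genes. None of the 4 passed the test with all 9 libraries. Polr1b had the largest fold of the 52 genes, from 28.1, 31.3 and 41.6 CPM in BM progenitors to 15.4, 10.5 and 12.8 CPM in Runx2wt. That is 2.59-fold lower, with a log2 fold change of -1.38 (SE 0.49) and an edgeR adjusted p of 0.0906, or 0.0332 without Runx2ko replicate 1 (0.00227 to 0.246 over its alternatives). In Runx2ko it was at 23.9, 22.3 and 4.61 CPM, so that replicates 1 and 2 lay between the other groups and replicate 3 lay below both. Ubtf, the most abundant of the 4, was at 226.8, 241.7 and 195.2 CPM in BM progenitors and 158, 151.9 and 159.1 CPM in Runx2wt. Its Runx2ko values of 272, 200.6 and 136.1 CPM spanned the range of both other groups. Of the 10 other tested polymerase I genes, none passed in any comparison with edgeR (1 at an unadjusted p under 0.05 in each), 5 of 10 values were below 0 in Runx2wt against BM progenitors and 3 lay wholly below. Without Runx2ko replicate 1, 1 of the 10 passed as higher in Runx2wt and 1 as lower in Runx2ko against BM progenitors. Polr1d, the most abundant, was at 152.9, 167.2 and 175.4 CPM in BM progenitors and 222, 177.9 and 145.2 CPM in Runx2wt.

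The nucleolar proteins included the most abundant members. Ncl encodes nucleolin, which binds nascent ribosomal RNA, and Npm1 encodes nucleophosmin, a scaffold of the outer nucleolus. Ncl was at 2260.7, 2490.1 and 2464.1 CPM in BM progenitors, 1566.4, 1366.9 and 1531 CPM in Runx2wt, and 2078.9, 1655.8 and 887.1 CPM in Runx2ko. Both transformed groups were below the BM progenitor range, and Runx2ko spanned the whole Runx2wt range. The fitted difference was -0.69 on the log2 scale (SE 0.26, edgeR adjusted p = 0.103) in Runx2wt against BM progenitors and -0.64 (SE 0.26, adjusted p = 0.118) in Runx2ko against BM progenitors; without Runx2ko replicate 1 these adjusted p-values were 0.0275 and 0.0146 (0.00278 to 0.254 and 0.0146 to 0.249 over the alternatives). Npm1 was at 1471.3, 1532.5 and 1682.3 CPM in BM progenitors and 1206.2, 1054 and 1155.7 CPM in Runx2wt, again without overlap, and missed the threshold (adjusted p = 0.169 by edgeR). Nolc1, Mybbp1a, Gnl3 (nucleostemin) and the RNA helicase gene Ddx21 also had no overlap between Runx2wt and BM progenitors, with log2 fold changes between -0.66 and -0.38 in Runx2wt. None of the 6 passed with all 9 libraries. In the fit of the 6 compared libraries all 6 passed as lower, beside 16% of all genes.

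Box C/D snoRNPs add methyl groups to ribosomal RNA and box H/ACA snoRNPs convert uridine to pseudouridine. Fbl, the methyltransferase fibrillarin, was at 119.5, 129.7 and 113.4 CPM in BM progenitors, 74.1, 80.4 and 88.5 CPM in Runx2wt, and 78.3, 84.9 and 59.6 CPM in Runx2ko. All transformed libraries were below all BM progenitor libraries. Fbl (ENSMUSG00000046865, chr7:28169710-28179269, plus strand) was 1.63-fold lower in Runx2ko than in BM progenitors, by -0.7 on the log2 scale (SE 0.17, edgeR adjusted p = 0.0256), and had an adjusted p of 0.0539 in Runx2wt. Nop56 and Nop58, the core proteins that hold box C/D RNAs, had log2 fold changes of -0.34 and -0.54 in Runx2wt with no overlap of groups, and neither passed. In the H/ACA particle, Nhp2 and Nop10, small RNA-binding subunits, fell in Runx2ko against BM progenitors. Nhp2 was at 210.8, 226.3 and 198.8 CPM in BM progenitors, 168, 153.3 and 158 CPM in Runx2wt, and 108, 160 and 84 CPM in Runx2ko, which lay -0.85 from BM progenitors on the log2 scale (SE 0.22, edgeR adjusted p = 0.03). Nop10 was at 555.6, 581.6 and 450.3 CPM, 467.6, 333.1 and 272.6 CPM, and 284.6, 351.7 and 282.9 CPM in the same order, with -0.79 (SE 0.21, adjusted p = 0.0357). Runx2wt replicate 1 overlapped the BM progenitor range for Nop10, and the Runx2ko libraries did not. Dkc1, the pseudouridine synthase, and Gar1 were lower in every Runx2wt library than in any BM progenitor library and did not pass.

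Among the 11 other tested snoRNP assembly genes, Tcof1, Snu13 and Nufip1 fell in both transformed groups against BM progenitors. Tcof1, the treacle protein that links polymerase I with snoRNPs, was at 172.6, 186.1 and 168.2 CPM in BM progenitors, 103.7, 80.4 and 78.5 CPM in Runx2wt, and 92.5, 114.4 and 51.5 CPM in Runx2ko. Its log2 fold changes were -1 (SE 0.27, edgeR adjusted p = 0.038) and -1.03 (SE 0.27, adjusted p = 0.0301). Snu13, a protein that nucleates box C/D particles, had -0.7 (adjusted p = 0.042) and -1 (adjusted p = 0.0121).

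**Figure D3:**
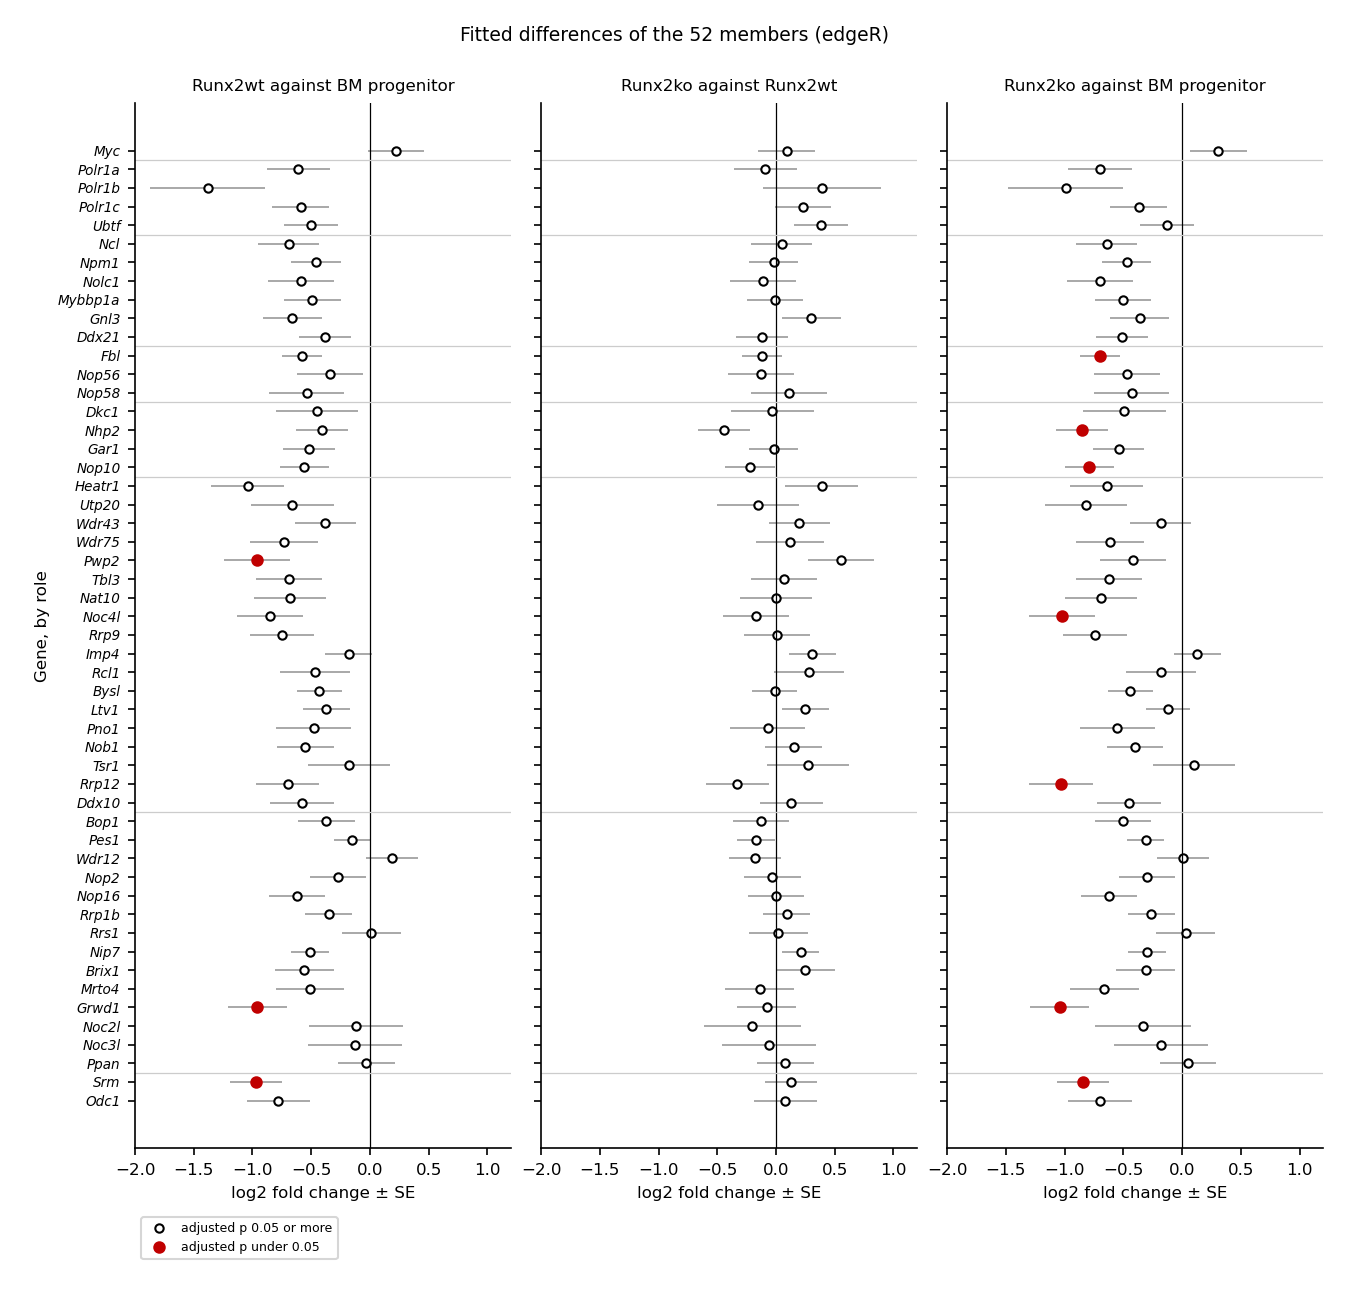
Points are fitted log2 fold changes with their standard errors for the 52 genes, by role, in the 3 comparisons; filled red points passed the test. Red points are 3 in Runx2wt against BM progenitor, 0 in Runx2ko against Runx2wt and 7 in Runx2ko against BM progenitor, all of them below 0.

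The small subunit class held 18 genes, most of them parts of the processome that cuts the early ribosomal RNA precursor. All 18 fitted values were below 0 in Runx2wt against BM progenitors, beside 49.3% of all genes. In 15 the libraries did not overlap, beside 24.5% of all genes lying wholly below. Of the 18, 1 passed, near the 5.23% of all genes that passed as lower. That gene was Pwp2 (ENSMUSG00000032834, chr10:78170909-78185149, minus strand), a WD-repeat subunit of the processome. Pwp2 was at 37, 48.3 and 43.5 CPM in BM progenitors, 24.5, 20.2 and 21.1 CPM in Runx2wt, and 40.8, 36.7 and 19 CPM in Runx2ko. Its fall in Runx2wt was 1.95-fold, -0.96 on the log2 scale (SE 0.28, edgeR adjusted p = 0.0495, just under the threshold). Runx2ko replicates 1 and 2 were in or beside the BM progenitor range, and replicate 3 was below the Runx2wt range, so that its Runx2ko values bracketed the Runx2wt values. Its log2 fold change in Runx2ko against Runx2wt, 0.55 (SE 0.28, adjusted p = 0.66), was the highest of the 52 and did not pass.

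Noc4l, which works in nuclear export of the small subunit precursor, was at 99.4, 96.6 and 118.1 CPM in BM progenitors, 60.6, 58.8 and 54.8 CPM in Runx2wt, and 67, 59.8 and 28.5 CPM in Runx2ko. All 6 transformed libraries were lower than BM progenitors. Noc4l (chr5:110648418-110653417, minus strand) passed in Runx2ko against BM progenitors with -1.02 (SE 0.28, edgeR adjusted p = 0.037), and had -0.85 (adjusted p = 0.0709) in Runx2wt. Rrp12, an export factor of the same route (chr19:41862851-41896173, minus strand), was at 54.6, 54.8 and 45 CPM, 38.2, 30.5 and 26.2 CPM, and 23.6, 34.4 and 17.1 CPM in the 3 groups. It also passed in Runx2ko against BM progenitors, with -1.03 (SE 0.27, adjusted p = 0.0315). Heatr1, a large processome scaffold with low counts, was at 23.7, 21.3 and 23.6 CPM in BM progenitors, 16, 10.5 and 6.68 CPM in Runx2wt, and 15.2, 13.9 and 14.9 CPM in Runx2ko. Here the Runx2ko libraries were close together (SD 0.687 CPM, n = 3) and the Runx2wt libraries spread (SD 4.68 CPM), and its adjusted p in Runx2wt was 0.0537. Wdr43, the most abundant of the class, was at 241.2, 276 and 298.8 CPM in BM progenitors, 233.1, 200.9 and 192.5 CPM in Runx2wt, and 290.5, 289.4 and 140.9 CPM in Runx2ko, the last group again reaching both above and below the Runx2wt range. Of the 39 other tested small subunit genes, 4 fell and 0 rose in Runx2wt against BM progenitors by edgeR (9 and 0 without Runx2ko replicate 1): Wdr46 (-1, adjusted p = 0.0204), Abt1 (-0.72, adjusted p = 0.0352), Ngdn (-0.51, adjusted p = 0.0358) and Emg1 (-0.65, adjusted p = 0.0366).

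The 14 large subunit assembly genes were placed less evenly. In 7 of them Runx2wt lay wholly below BM progenitors, beside 24.5% of all genes, and 12 values were below 0, beside 49.3%. The class median by library was -0.25, -0.23 and -0.26 in Runx2wt, against -0.49, -0.81 and -0.5 for the small subunit class. Other tested genes of these roles were not split in this way. Over 39 other small subunit genes the median log2 fold change in Runx2wt was -0.28, and over 50 other large subunit genes it was -0.3. By Runx2wt library, the medians were -0.26, -0.39 and -0.27 for these small subunit genes, against -0.23, -0.35 and -0.26. No test compared the classes. Grwd1, a histone-binding WD-repeat protein of the pre-60S particle (ENSMUSG00000053801, chr7:45825223-45830944, minus strand), was the member of this class that passed, in both transformed groups. It was at 72.4, 83.1 and 82.6 CPM in BM progenitors, 37.4, 36.6 and 48.4 CPM in Runx2wt, and 41.7, 49.1 and 24.7 CPM in Runx2ko. No transformed library came near the BM progenitor range. Grwd1 changed by -0.96 on the log2 scale (SE 0.25, edgeR adjusted p = 0.0373) in Runx2wt and -1.04 (SE 0.25, adjusted p = 0.0241) in Runx2ko, and it is among the 10 genes with CACGTG printed above. Over those 10 genes the median log2 fold change in Runx2wt was -0.38, and over the 34 other genes with a window it was -0.56. CACGTG outside the window, which ended 50 bases after the start, was not counted. The 8 genes with no window, Myc, Srm, Fbl and Rrp12 among them, are in neither set, and no test compared the sets.

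Rrs1, which brings the 5S particle to the subunit, was at 212.8, 287.8 and 282.7 CPM in BM progenitors, 242.9, 235 and 310.8 CPM in Runx2wt, and 184, 354 and 258.6 CPM in Runx2ko, with full overlap. Wdr12 had the highest value after Myc in Runx2wt, 0.19 (SE 0.22, edgeR adjusted p = 0.587), while its partners Bop1 and Pes1, in the PeBoW complex that processes the large subunit RNA, had -0.37 and -0.15. None of the 3 passed, and for Bop1 every Runx2wt library was below every BM progenitor library. Brix1 was at 97.6, 98.5 and 120.8 CPM, 81.8, 61 and 72.1 CPM, and 108.4, 94.2 and 53.9 CPM in the 3 groups, Runx2wt lying wholly below BM progenitors and Runx2ko overlapping both. Of 50 other tested large subunit genes, 4 fell and 1 rose in Runx2wt by edgeR (5 and 1 without Runx2ko replicate 1). Lyar, a nucleolar zinc finger protein, was at 198.7, 215.3 and 239.4 CPM in BM progenitors, 108.4, 73.7 and 74.3 CPM in Runx2wt, and 76.7, 75.4 and 49.9 CPM in Runx2ko. It had the smallest adjusted p of that list in both comparisons, at log2 fold changes of -1.35 (SE 0.22, adjusted p = 0.00835) and -1.69 (SE 0.23, adjusted p = 0.00339). Nsa2, a pre-60S factor, was the gene that rose, from 48.7, 51 and 56.1 CPM to 87.7, 96.7 and 69 CPM in Runx2wt (0.7, adjusted p = 0.0306).

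Srm and Odc1 encode spermidine synthase and ornithine decarboxylase of polyamine synthesis, both long-known MYC targets. Srm (ENSMUSG00000006442, chr4:148591503-148594993, plus strand) was at 221.5, 236.3 and 290.5 CPM in BM progenitors, 137.7, 115.6 and 129.4 CPM in Runx2wt, and 127.8, 184.2 and 105.2 CPM in Runx2ko. Both transformed groups lay below BM progenitors without overlap. Srm had the smallest adjusted p of the 52 genes in Runx2wt, 0.0231 by edgeR, at 1.95-fold lower (log2 fold change -0.97, SE 0.22), and it passed again in Runx2ko (-0.84, SE 0.22, adjusted p = 0.0305). Odc1 was at 56.6, 61.8 and 70.7 CPM, 40.1, 37.1 and 32.8 CPM, and 44, 49.1 and 23 CPM, with -0.78 (SE 0.27, adjusted p = 0.0794) in Runx2wt. Of 12 other polyamine and hypusine genes, Sms, spermine synthase, fell in both transformed groups (-1.24, adjusted p = 0.0409, and -1.18, adjusted p = 0.0413 by edgeR), and Eif5a, the protein that carries hypusine, fell in Runx2ko (-0.76, adjusted p = 0.0168).

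Runx2ko was then set against Runx2wt, the comparison that asks what 4-hydroxytamoxifen changed in transformed cells. None of the 52 genes passed with edgeR, DESeq2 or limma-voom, and none reached an unadjusted p under 0.05 with edgeR, beside 7.91% of all tested genes; 0% of all genes passed after adjustment with edgeR and 48 genes did with DESeq2. All 52 genes overlapped between the groups, where 9.68% of all genes did not. The median log2 fold change was 0.01, with values from -0.44 (Nhp2) to 0.55 (Pwp2), and the smallest adjusted p was 0.655. At this spread no difference was detectable, and equality of the groups is not shown.

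The middle position of the Runx2ko group came from libraries on opposite sides. Runx2ko replicate 1 was above all 3 Runx2wt libraries for 30 of the 52 genes and below them for 5, where 35.4% and 34.7% of all genes were so placed. Replicate 2 was above them for 32 genes and below for 1, beside 25.3% and 24.8% of all genes. Replicate 3 was below them for 43 genes and above for 0, beside 29.8% and 26.9%. Relative to the Runx2wt mean, the median log2 difference of the 52 genes was 0.27, 0.28 and -0.57 in the 3 libraries. Replicate 3 had the lowest value of all 9 libraries in 43 of 52 genes (82.7%), against 16.5% of all genes. Without replicate 3, 47 of 52 fitted values in Runx2ko against Runx2wt were above 0 (all genes 50.6%), with a median of 0.22; without replicate 1, 36 were below 0 (all genes 51.8%), with a median of -0.1. None passed in either fit.

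**Figure D4:**
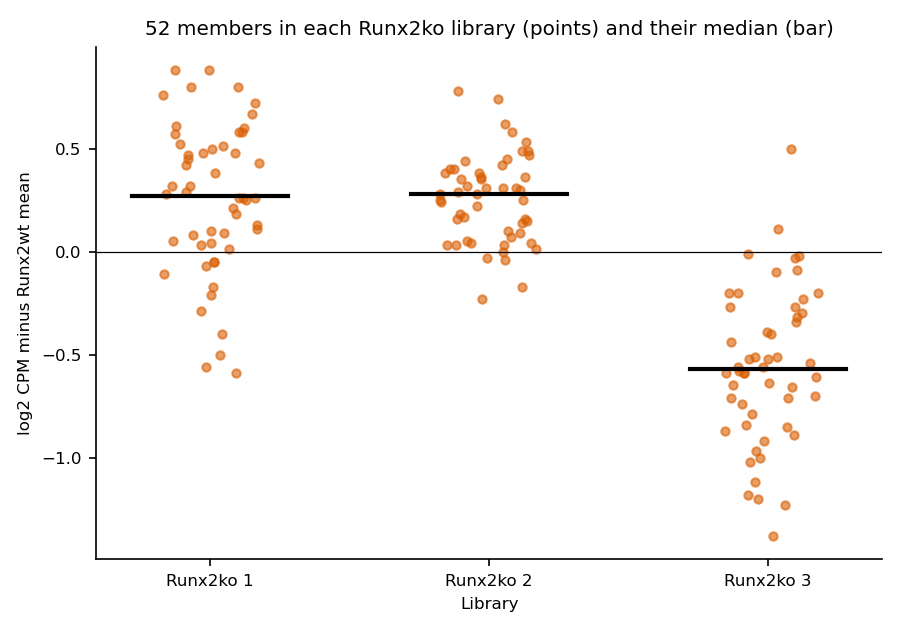
Each point is 1 of the 52 genes, as log2 CPM in a Runx2ko library minus the Runx2wt mean; bars are medians of 0.27, 0.28 and -0.57. Replicates 1 and 2 lie mostly above 0 and replicate 3 mostly below.

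Several measures of the same libraries can be set beside this. Proliferation genes, 17 tested, had a median of -1.79, -0.99 and -1.87 log2 from the BM progenitor mean in Runx2ko replicates 1, 2 and 3. The 52 genes had -0.24, -0.26 and -1.09 in the same order. Other ribosome assembly genes, 126 tested, had -0.22, -0.15 and -0.65. Other MYC targets outside ribosome assembly, 34 tested, had -0.82, -0.32 and -0.89. Mitochondrial ribosomal protein genes had -0.49, -0.31 and -0.47. Cytosolic ribosomal protein genes had 0.37, 0.34 and 0.42, and replicate 3 was not low. Mitochondrial counts were 1.67%, 1.8% and 1.74% of the 3 libraries, and their totals 3118594, 5316878 and 3829797. Neutrophil markers, 12 of 12 detected, ranged from 912.8 CPM in replicate 1 to between 6208.4 and 10659.1 CPM in the other 2, and megakaryocyte markers were at 810.3 CPM in replicate 1 and 22.3 to 27.4 CPM in the others. The part of these differences in the biogenesis values was not tested.

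Against BM progenitors, 7 of the 52 genes were lower in Runx2ko and none higher (edgeR), where 17.2% of all genes passed in either direction, 7.14% as lower and 10% as higher. They were Fbl, Nhp2, Nop10, Noc4l, Rrp12, Grwd1 and Srm, with log2 fold changes between -1.04 and -0.7. Fitted values were below 0 for 46 of 52 genes, beside 46.2% of all genes, with a median of -0.48 (all genes 0.07). In 27 genes the libraries did not overlap, all lower, beside 18.8% of all genes. Without replicate 1, 16 genes passed as lower, beside 12.6% of all genes, and the median was -0.66. Without replicate 3, 2 passed as lower (1288 of all genes in either direction, against 1924 with all libraries) and the median was -0.27. The count was 11 without replicate 2 (1797 of all genes in either direction), 4 without Runx2wt replicate 2 (1517 genes), and 0 when any 1 BM progenitor library was left out (405 to 498 genes). This comparison and that of Runx2wt share the same 3 BM progenitor libraries.

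**Figure D5:**
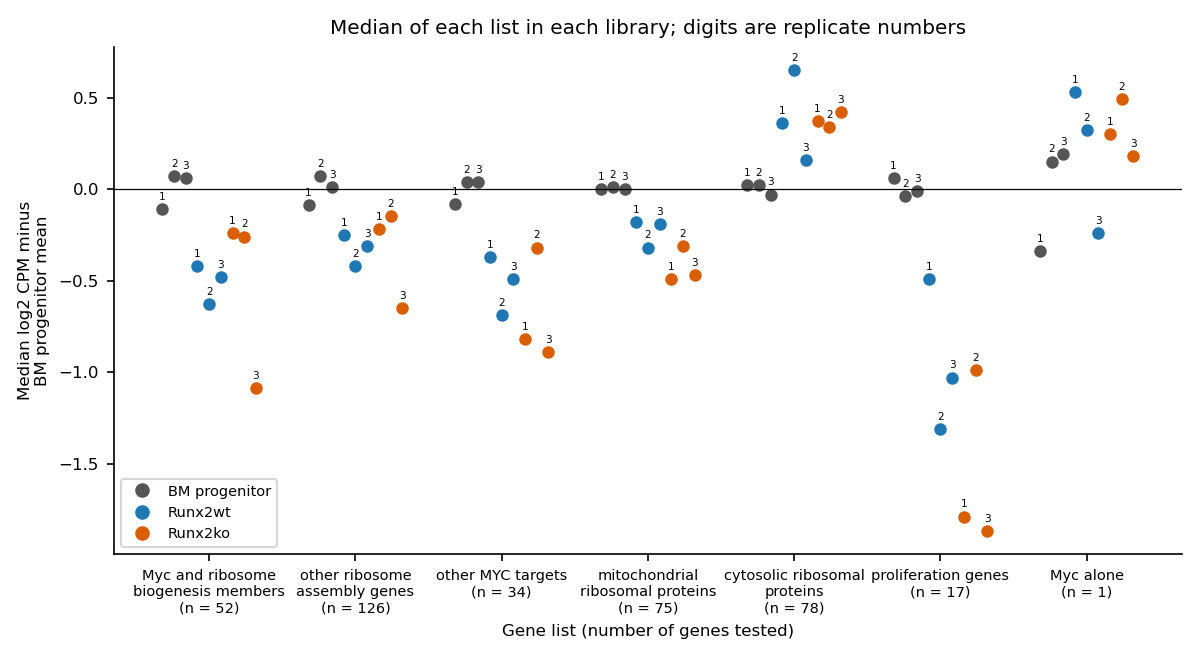
Each point is the median over a gene list of log2 CPM minus the BM progenitor mean, in 1 library. Ribosome biogenesis genes, other assembly genes and other MYC targets lie below 0 in all 6 transformed libraries, and cytosolic ribosomal protein genes lie above 0 in all 6.

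Genes around the pathway were counted over lists of known members. Of 126 other ribosome assembly genes, 13 were lower and 1 was higher in Runx2wt against BM progenitors by edgeR, with a median of -0.32, and 105 values were below 0. Without Runx2ko replicate 1 these counts were 22 and 2, where all genes passing as lower went from 586 of 11196 to 1407 of 11636. In Runx2ko against BM progenitors 15 lower became 30, where all genes passing as lower went from 799 to 1465. Of 34 other MYC targets outside ribosome assembly, 7 were lower (14 without Runx2ko replicate 1) and 0 higher in Runx2wt, with a median of -0.49. All genes passing as lower there were 5.23%, or 12.1% without that library. The smallest adjusted p-values were those of Nme1 (nucleoside diphosphate kinase, -0.73), C1qbp (a mitochondrial matrix protein, -0.84) and Ran (the nuclear transport GTPase, -0.68), each at 0.0373. In Runx2ko against BM progenitors, 16 of these 34 were lower (14 without replicate 1), beside 7.14% of all genes (12.6% without it). They were led by Ran (-0.93, edgeR adjusted p = 0.0119), Hspd1 (the mitochondrial chaperonin, -1.1, adjusted p = 0.0148) and Ranbp1 (-1.01, adjusted p = 0.0153).

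Ribosomal proteins themselves were placed the other way. Of 78 tested cytosolic ribosomal protein genes, 21 rose and 0 fell in Runx2wt against BM progenitors by edgeR, with a median of 0.42. In Runx2ko 26 rose. Of all genes, 8.28% and 10% passed as higher in these comparisons. Without Runx2ko replicate 1 the ribosomal protein genes that rose were 26 and 24, where 1849 and 1846 of all 11636 genes passed as higher. Their share of all counts was 9.53% to 10% in BM progenitors and 10.7% to 14% in the transformed libraries. Mitochondrial ribosomal protein genes had 9 lower and 1 higher of 75 in Runx2wt, with a median of -0.23, where 5.23% of all genes were lower and 8.28% higher. Targets of p53, which nucleolar stress is known to induce, had 0 of 17 passing in Runx2wt with edgeR (4 at an unadjusted p under 0.05). Without Runx2ko replicate 1, 4 of the 17 passed as higher there and none as lower, where 1849 of all 11636 genes passed as higher and 1407 as lower. The 4 were Zmat3 (1.58, edgeR adjusted p = 0.00432), Gdf15 (1.59, adjusted p = 0.00523), Sesn2 (1.03, adjusted p = 0.00825) and Pmaip1 (0.85, adjusted p = 0.0315). Rps27l, the most abundant, was at 370.1, 374.4 and 416.5 CPM in BM progenitors and 377.1, 321.5 and 294.6 CPM in Runx2wt. In Runx2ko, Sesn2 (1.73, adjusted p = 0.0129), Bbc3 (1.71, adjusted p = 0.023) and Zmat3 (2.23, adjusted p = 0.0484) rose against BM progenitors. Runx2ko replicate 1 was the highest library for all 3, and without it Bbc3 had 0.95 (edgeR adjusted p = 0.00283) and Zmat3 did not pass (0.91, adjusted p = 0.0722). The list then had 3 higher and 3 lower, where 1846 of all 11636 genes were higher and 1465 lower.

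Proliferation genes were lower too, with all 17 values below 0 in both transformed groups against BM progenitors. In Runx2wt 4 of 17 passed as lower (Aurka, Aurkb, Ccna2 and Plk1), beside 5.23% of all genes. In Runx2ko 15 of 17 did, beside 7.14% of all genes. Without Runx2ko replicate 1, 12 of 17 passed as lower in Runx2wt and 15 in Runx2ko, beside 12.1% and 12.6% of all genes. Cell type markers also differed between these groups. Eosinophil markers, 8 genes, summed to between 1376.9 and 1839.4 CPM in BM progenitors, 2.49 and 4.52 CPM in Runx2wt (4 of the 8 at 0 in all 3 libraries), and 8.75 and 18.1 CPM in Runx2ko. Mast cell and basophil markers, 13 genes, summed to 1028.6 to 1173.7 CPM in BM progenitors and 71.9 to 311.3 CPM in Runx2wt. This list was split: of its 9 tested genes, 7 values were below 0 and 2 above 0. Mcpt8 went from 412.2, 344.7 and 395.7 CPM to 7.9, 3.33 and 1.67 CPM. Cma1 went from 0.182, 0.27 and 0.425 CPM to 3.39, 39.4 and 110.4 CPM. Neutrophil markers summed to 12224.7 to 16520 CPM in BM progenitors and 1755.8 to 4546.8 CPM in Runx2wt, with 10 of 12 values below 0 and 2 above. Monocyte and macrophage markers, 10 genes, summed to 4162.5 to 6004.7 CPM in BM progenitors and 6912.7 to 13090.3 CPM in Runx2wt. Lyz2 alone was at 3743.1, 5172 and 10728.3 CPM in Runx2wt. Of the 10 values, 9 were above 0 and 1 (Cx3cr1) was below. The part of cell makeup and of proliferation in the values of the 52 genes was not tested.

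For 11 of the 52 genes (Mybbp1a, Nop56, Dkc1, Nhp2, Heatr1, Tbl3, Bysl, Pno1, Tsr1, Bop1 and Noc2l) a gene on the opposite strand lies within the last 1000 bases in the GENCODE vM21 annotation of GRCm38. Whether the counting used strand is not stated, so their values are uncertain to that extent; for Nhp2, which passed in Runx2ko, that neighbour is Rmnd5b.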

How the data were processed

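QuantSeq 3' mRNA libraries were made by the authors from 500 ng of RNA, per the labels' protocols, which also speak of T-ALL cells that no other label mentions. The files deposited by the authors hold a raw count for each gene identifier, and a second table of other values, equal to these counts times 1 constant per library (found by dividing the deposited tables). FastQC, STAR, DESeq2 and GRCm38 are named, without versions, per the submitters' processing notes. The counting program and its use of strand are not stated in the sources used here. Raw counts entered edgeR 4.0.16 (R 4.3.3; TMM, filterByExpr, quasi-likelihood F-test) on all 9 libraries in 3 groups, and p-values were adjusted by Benjamini-Hochberg over all 11196 genes at a threshold of 0.05. Log2 CPM used a prior count of 2. Symbols from GENCODE vM21 matched 21042 of 21159 identifiers. The members and lists were chosen with earlier results of these data known. Named genes were Myc, the most abundant member and the member with the largest fold in each role class and comparison, every member that passed, and in each other list up to 3 passing genes with the smallest adjusted p, or the most abundant where none passed; Mxi1, Max, Npm1, Odc1, Wdr12, Gdf15, Pmaip1 and other genes outside this rule were named after their values were seen. Alternatives were DESeq2 1.42.0, limma-voom (limma 3.58.1), other scalings and filters, the compared libraries alone, a replicate block, the deposited normalized values on log2(value + 1), and leaving out each library. The labels call the samples independent biological replicates.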

Additional observations from a re-analysis of the deposited data

How the results depend on the processing

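Counts in brackets here are all genes passing in either direction, whereas the members counted are those lower. In Runx2wt against BM progenitors the 3 lower genes (1513) became 8 with DESeq2 (2250) and 6 with limma on the authors' normalized values (1585). They became 32 with only the compared libraries (3679) and 0 with a replicate block (922). Library totals without TMM factors, an alternative chosen after seeing the data, gave 6 (1463). Leaving out each library in turn gave 0 to 15 (209 to 3256). In Runx2ko against BM progenitors the 7 lower genes (1924 of all genes) became 1 with only the compared libraries (1262) and 3 with a replicate block (1120), and 0 to 16 on leaving out each library (405 to 3311). In Runx2ko against Runx2wt the count was 0 under every alternative run. No pairing by replicate number was seen: same-numbered libraries correlated at -0.07 to 0.07 in their deviations, 0 of 9 pairs were over 0.1, and 4 libraries correlated best with their own number. With 3 libraries a group, this does not show that same-numbered libraries shared no animal or batch.

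The median log2 fold change of the 52 genes lay between -0.62 and -0.47 in Runx2wt against BM progenitors, between -0.66 and -0.27 in Runx2ko against BM progenitors, and between -0.1 and 0.22 in Runx2ko against Runx2wt, over all alternatives including left-out libraries. For the 20 genes named by rule, 39 of 360 alternative values in Runx2wt against BM progenitors newly passed and 23 no longer passed; the counts in Runx2ko against BM progenitors were 2 and 40. No alternative turned the direction of a gene that passed. The cause of these differences was not tested. The Runx2ko group had the widest spread, an SD of the members' library median of 0.49 log2 units against 0.1 in BM progenitors and 0.11 in Runx2wt, and the pooled fit carries that spread into every comparison.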

Other observations

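Mycn, the MYC paralog of embryonic and neural tissues, was found in 1 transformed library. Runx2ko replicate 1 had 189 counts of Mycn (61.1 CPM, beside 58.5 CPM of Myc in that library), and the other 5 transformed libraries had 0 or 1 count. BM progenitor libraries had 9, 24 and 18 counts (1.64, 6.47 and 3.82 CPM). Mycn did not pass in any comparison with all 9 libraries (edgeR adjusted p = 0.217 in Runx2wt against BM progenitors and 0.359 in Runx2ko against BM progenitors), and without Runx2ko replicate 1 it was lower in Runx2wt than in BM progenitors (adjusted p = 0.00725). Runx2ko replicate 1 is also the library with 21 CPM of Runx2. It had the highest sums of mast cell and basophil, megakaryocyte and erythroid markers (3902.2, 810.3 and 825.1 CPM) of the 3 Runx2ko libraries.

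Of 16 tested genes of ribosomal RNA trimming, 2 were lower and 0 higher against BM progenitors in each transformed group (4 and 5 lower without Runx2ko replicate 1). Exosc8, a subunit of the RNA exosome, was at 69.3, 63.4 and 77.1 CPM in BM progenitors, 38.9, 31 and 41.5 CPM in Runx2wt, and 43.3, 47.8 and 33.3 CPM in Runx2ko, with log2 fold changes of -0.91 (SE 0.2, edgeR adjusted p = 0.0204) and -0.75 (SE 0.2, adjusted p = 0.0316). Isg20l2, an exonuclease that trims 5.8S precursors, fell in Runx2wt (-0.72, adjusted p = 0.0367), and Exosc2 fell in Runx2ko against BM progenitors (-1.14, adjusted p = 0.0162). All 6 transformed libraries were below all BM progenitor libraries for Exosc8, Isg20l2 and Exosc2.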
